A study of Mus musculus with 7 samples.

Results

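The 6 genes described here, Stat2, Stat3, Stat4, Stat5a, Stat5b and Stat6, encode STAT proteins (signal transducers and activators of transcription). They were picked by symbol, are 6 of 28666 genes in the deposited table, and all 6 had enough reads to be tested among 17461 genes. STAT proteins wait in the cytoplasm. When a cytokine binds its receptor, Janus kinases (JAKs) attached to the receptor phosphorylate a STAT protein, which pairs with another and enters the nucleus to switch on target genes. In dendritic cells, STAT5 acts downstream of GM-CSF, STAT6 downstream of IL-4 and IL-13, STAT3 downstream of IL-6 and IL-10, STAT4 downstream of IL-12, and STAT2 is part of the complex that type I interferons activate. RNA levels do not show how much of these proteins was phosphorylated.

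The libraries came from mouse bone marrow-derived dendritic cells (BMDCs), 3 labelled immature and 4 labelled mature. The study's methods and results text give marrow of female C57BL/6 mice aged 6 to 8 weeks, cultured for 7 days with 20 ng/mL GM-CSF and 10 ng/mL IL-4, so both groups had met cytokines that act through STAT5 and STAT6. The BMDCs then shared medium across a Transwell membrane with MC38, a colon carcinoma line of the mouse. The results text gives 24 h of DON, a glutamine antagonist, before flow sorting into immature and mature cells, whereas a legend names DMSO or DON at 5 uM. The results text also gives more glutamine in the co-culture with DON than in the one with DMSO. The sort markers and the treatment of each library are not given in the sources used here. The study's methods speak in general of independent biological experiments, but neither they nor the labels say which libraries of a group came from separate mice or cultures, so the p-values measure only the spread between these libraries, which may be technical.

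The libraries held 54846746 to 67973086 counts each. All 8 markers of mature dendritic cells, Ccr7, Cd80 and Cd86 among them, were higher in the mature libraries. Their summed level was 1294 to 1371 CPM (counts divided by the normalised library size) in immature and 12456 to 15400 CPM in mature libraries. Legends of the study's other experiments define mature dendritic cells as CD80 and CD86 positive. If this sort used the same proteins, the rise of Cd80 and Cd86 would follow from it and is no separate evidence of maturity. All 8 macrophage markers were lower, with sums of 2002 to 2064 and 354 to 417 CPM. The 7 dendritic cell markers summed to 10116 to 10852 CPM in immature and 11129 to 16328 CPM in mature libraries, with 2 higher and 1 lower. Itgax (CD11c), H2-Ab1, H2-Aa and Cd74 stood at 834 CPM or more in every library. Zbtb46 was at 24.3 to 27.0 and 98.0 to 109 CPM, Flt3 at 0.310 to 0.647 and 4.83 to 7.34 CPM, and Cd209a at 0.716 CPM or less in every library. Markers of T, B, NK and mast cells and neutrophils summed to at most 6.37 CPM per list. Those of epithelial cells summed to 57.2 to 71.8 CPM, with 1 higher in the mature libraries and none lower. Most of this sum was Cdh1, at 47.3 to 57.8 CPM over all libraries. Epcam was at 0.170 to 0.418 CPM in immature and 0.720 to 1.60 CPM in mature libraries. Cardiac muscle genes summed to 2.47 CPM or less in the immature libraries and mature replicate 1 but to 523 to 619 CPM in mature replicates 2, 3 and 4. The part of macrophage, tumour or cardiac RNA in the STAT results was not tested. In bulk RNA, a change in the share of a cell type cannot be told apart from a change of RNA per cell.

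The promoters of Stat4 and Stat2 are shown because Stat4 differed most between the groups and Stat2 is the member whose protein serves interferon signalling. The RefSeq sequences on GRCm38.p6 run from 250 bases before to 50 bases after a transcription start, in the direction of the gene. Capitals mark a match to a STAT-type motif, and a sequence without capitals holds none. Stat4 has 2 starts, 1 of them inside the gene. Their promoter windows are chr1:51986898-51987197 and, for the internal start, chr1:52007990-52008289. The Stat2 promoter window is chr10:128270248-128270547, and all are on the plus strand.
Stat4, upstream start: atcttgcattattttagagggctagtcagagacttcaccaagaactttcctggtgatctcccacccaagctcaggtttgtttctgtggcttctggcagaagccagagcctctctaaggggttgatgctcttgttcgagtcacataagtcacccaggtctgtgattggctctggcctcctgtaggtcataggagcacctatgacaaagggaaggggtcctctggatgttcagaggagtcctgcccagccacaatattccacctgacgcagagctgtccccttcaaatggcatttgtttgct
Stat4, internal start: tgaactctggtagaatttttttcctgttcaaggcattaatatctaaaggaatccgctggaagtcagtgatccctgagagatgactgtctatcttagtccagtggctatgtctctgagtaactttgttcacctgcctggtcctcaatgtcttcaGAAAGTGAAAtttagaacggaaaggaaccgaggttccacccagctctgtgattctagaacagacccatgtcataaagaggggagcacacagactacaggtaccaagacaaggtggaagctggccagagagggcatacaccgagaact
Stat2: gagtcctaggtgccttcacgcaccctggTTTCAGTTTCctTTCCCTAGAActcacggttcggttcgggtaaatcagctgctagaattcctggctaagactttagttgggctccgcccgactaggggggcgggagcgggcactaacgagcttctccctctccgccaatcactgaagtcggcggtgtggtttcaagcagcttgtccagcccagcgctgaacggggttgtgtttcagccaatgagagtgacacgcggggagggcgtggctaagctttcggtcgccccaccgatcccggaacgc
The motifs searched on both strands were TTCNNNGAA, found in 8.30% of 32851 promoters of this length, TTCNNNNGAA, found in 6.95%, and GAAANNGAAA, the core of the interferon response element, found in 3.44%. The internal Stat4 start held the interferon core once. The Stat2 promoter held the interferon core, on the reverse strand, and the TTCNNNNGAA motif, which do not overlap. The other 7 of the 9 promoters of the 6 genes held none of these letters in the window. A match is a description of the letters, not of binding.

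Stat4 carries the largest difference of the 6 genes. It was near the middle of the expressed genes in immature BMDCs and among the most abundant transcripts in mature BMDCs, where it drew level with Stat6. In FPKM (fragments scaled by transcript length and library total), immature libraries held 2.86, 2.77 and 2.60 and mature libraries 69.4, 62.9, 60.1 and 56.4. The groups lie far apart, and every mature library is above every immature one. The gene (ENSMUSG00000062939; chr1:51987148-52107189, plus strand) stood at percentile 51.8 of the tested genes by mean FPKM in immature and 95.9 in mature BMDCs.

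Stat4 rose 20.98-fold, a log2 fold change of 4.39 (SE 0.10), with an adjusted p of 1.3e-07 by edgeR's quasi-likelihood test with Benjamini-Hochberg adjustment over all tested genes. In CPM the mean went from 12.1 ± 0.392 (SD, n = 3) to 254 ± 21.3 (SD, n = 4). The raw counts were 669 to 761 per immature and 13920 to 18367 per mature library. With mature replicate 1, the mature library low in cardiac genes, alone against the immature libraries, the log2 fold change was 4.55. Of 1149 tested genes annotated as transcription factors, Stat4 ranked 22 by log2 fold change.

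**Figure D1:**
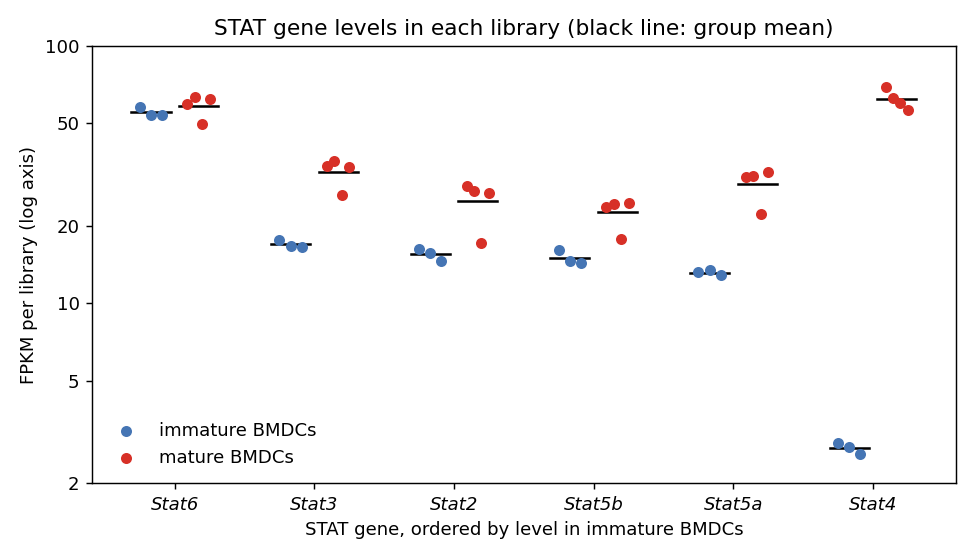
FPKM of each STAT gene in each library on a log axis, with immature and mature BMDCs in separate colours, 1 point per library, and a bar for each group mean. Stat4 lies between 2.60 and 2.86 in immature and between 56.4 and 69.4 in mature libraries, whereas the points of Stat6 overlap between the groups.

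Stat5a and Stat5b encode closely related proteins that GM-CSF, IL-2 family cytokines, prolactin and growth hormone activate. Stat5a stood at 13.2, 13.4 and 12.9 FPKM in immature and at 30.9, 31.3, 22.2 and 32.3 FPKM in mature libraries. Stat5b stood at 16.1, 14.6 and 14.3 FPKM and at 23.7, 24.4, 17.8 and 24.4 FPKM. Neither gene's groups overlap, and mature replicate 3 is the lowest mature library for both.

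Stat5a rose 2.05-fold, a log2 fold change of 1.03 (SE 0.11, edgeR adjusted p 8.7e-05). The value lies just above the fold criterion of 1 on the log2 scale. Without mature replicate 4 it was 0.99, under the criterion. Stat5b was higher by 0.48 on the log2 scale (SE 0.10, edgeR adjusted p 0.00442), under the criterion.

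Of this pair of genes, Stat5b was the more abundant in immature and Stat5a in mature cells. The ratio of Stat5a to Stat5b FPKM was 0.821, 0.921 and 0.902 in the immature libraries and 1.30, 1.29, 1.24 and 1.32 in the mature libraries. Every mature ratio is above 1 and every immature ratio below it. The log2 ratio moved from -0.18 ± 0.088 to 0.37 ± 0.038, a difference of 0.55 or 1.47-fold. A two-sided exact permutation test over the 35 labelings gave p = 0.0571, the smallest p that 3 against 4 libraries allow. The 2 genes share sequence: 175 stretches of 150 bases occur in transcripts of both, which is 2.21% of those of Stat5a and 3.16% of those of Stat5b, so some reads could be assigned to either.

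**Figure D2:**
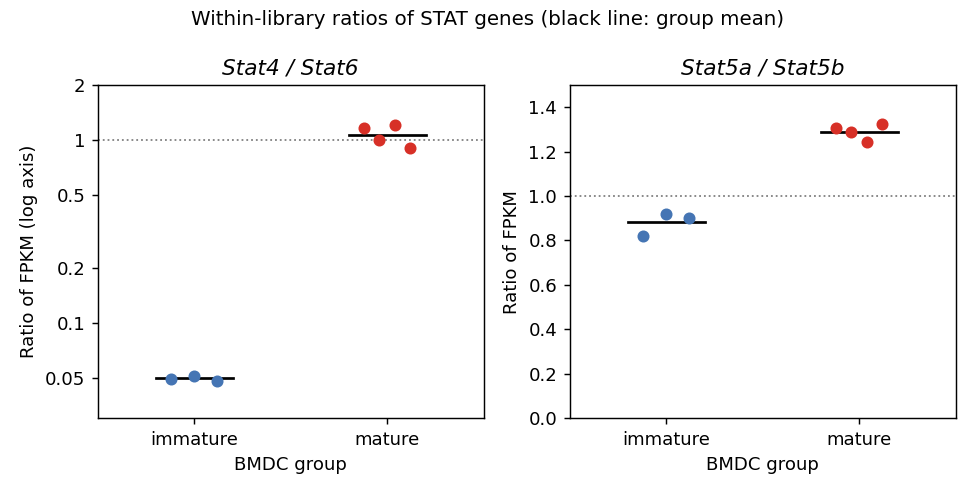
Ratio of Stat5a to Stat5b FPKM and of Stat4 to Stat6 FPKM in each library, with 1 point per library and the groups side by side. Stat5a to Stat5b lies between 0.821 and 0.921 in immature and between 1.24 and 1.32 in mature BMDCs, and Stat4 to Stat6 moves from 0.0480 to 0.0513 up to 0.906 to 1.21.

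Stat3, which relays IL-6, IL-10 and related signals, stood at 17.7, 16.7 and 16.6 FPKM in immature and at 34.2, 35.7, 26.3 and 34.0 FPKM in mature libraries. The groups did not overlap. Its log2 fold change of 0.82 (SE 0.091, edgeR adjusted p 0.000112) is under the fold criterion. Stat2, which joins the interferon-activated complex, stood at 16.3, 15.7 and 14.7 FPKM in immature and at 28.6, 27.3, 17.1 and 26.8 FPKM in mature libraries. Its groups are separate only by a small gap, between 16.3 and 17.1 FPKM, because mature replicate 3 is low. Its log2 fold change was 0.57 (SE 0.14, edgeR adjusted p 0.0104), and 0.71 without mature replicate 3.

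Stat6, the factor of IL-4 and IL-13 signalling and the highest STAT gene in immature BMDCs, did not differ detectably between the groups. It stood at 57.9, 54.0 and 54.2 FPKM in immature and at 59.6, 63.1, 49.6 and 62.2 FPKM in mature libraries, and the groups overlap. Its log2 fold change was -0.027 (SE 0.081, edgeR adjusted p 0.810). The CPM means were 277 ± 11.4 (SD, n = 3) and 272 ± 17.8 (SD, n = 4).

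Of the 6 STAT genes, 2 (Stat4 and Stat5a) passed both criteria, which were a difference of 1 or more on the log2 scale in either direction together with an adjusted p below 0.05, and both were higher in mature BMDCs. Among all tested genes 23.1% passed, 13.2% higher and 9.95% lower. By adjusted p alone, 5 of the 6 were higher, against 23.2% of all tested genes. In those 5, every mature library lay above every immature one, which held for 25.4% of tested genes. The median log2 fold change of the 6 genes was 0.70, and that of all tested genes was 0.055. With mature replicate 1 alone, the log2 fold changes were 0.77 for Stat2, 0.90 for Stat3, 1.12 for Stat5a and 0.55 for Stat5b. There the spread comes from the 3 immature libraries alone and the lone mature library is assumed to vary like them, so the values are given without a count of calls.

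The order of levels by FPKM was Stat6, Stat3, Stat2, Stat5b, Stat5a and Stat4 in each of the 3 immature libraries. The ranges of Stat2 and Stat5b overlapped there. In mature BMDCs Stat4 and Stat6 led, and their ranges overlapped, with Stat4 above Stat6 in mature replicates 1 and 3. Stat3, Stat5a, Stat2 and Stat5b followed, and each of these overlapped with the next in its range over libraries, although Stat3 was above Stat5a and Stat5a above Stat2 in all 4 libraries.

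The summed FPKM of the 6 genes was 115 to 124 in immature and 193 to 246 in mature libraries. Stat4 made up 2.26% to 2.36% of the sum in immature and 23.9% to 31.1% in mature BMDCs. The share of Stat6 was 46.0% to 47.0% and then 24.2% to 26.4%. Without Stat4 the sum was 113 to 121 in immature and 133 to 182 in mature libraries, so the sums of the other 5 genes did not overlap either.

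**Figure D3:**
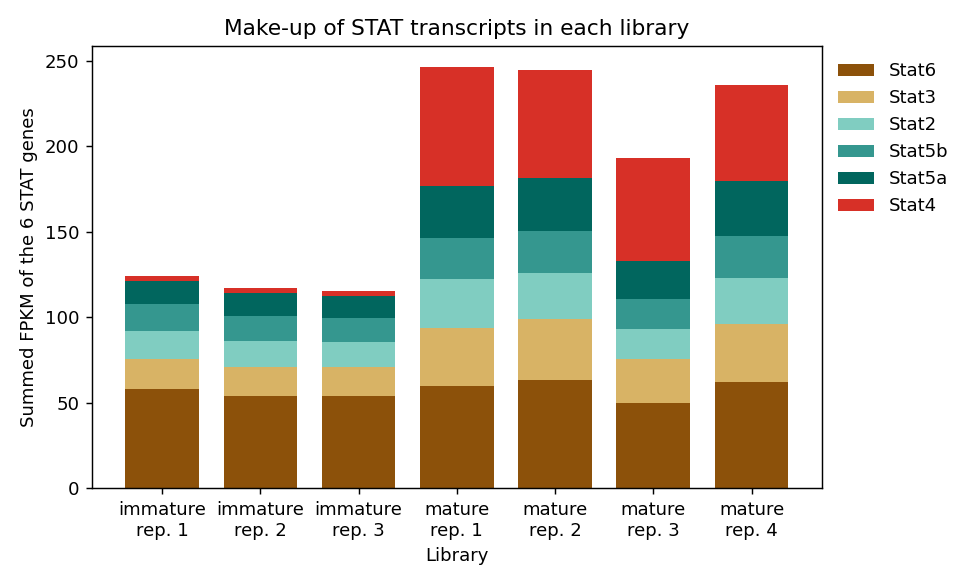
Stacked bars of the FPKM of the 6 STAT genes, 1 bar per library, on an axis from 0. The segment of Stat4 grows from at most 2.86 FPKM in immature to at least 56.4 FPKM in mature libraries, whereas the Stat6 segment stays between 49.6 and 63.1 FPKM.

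Mature replicate 3 was the lowest mature library for 5 of the 6 genes, Stat4 being the exception. In CPM it stood at 0.682 times the mean of the other mature libraries for Stat2, 0.769 for Stat5a, 0.807 for Stat5b, 0.832 for Stat3, 0.881 for Stat6 and 1.05 for Stat4. The longest transcript is 2982 bases for Stat4 and 3775 to 6042 bases for the others. Over all tested genes, the median log2 difference of this library from the other mature libraries was -0.31 for transcripts over 4000 bases and 0.40 for those under 2000 bases. Its part in the values of the STAT genes was not tested. Without this library, the log2 fold changes were 0.91 for Stat3, 1.14 for Stat5a, 0.57 for Stat5b and 4.40 for Stat4.

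Several members are neighbours. Stat5b (chr11:100780731-100850724, minus strand) and Stat5a (chr11:100859351-100885169, plus strand) lie 8626 bases apart, and the 3' end of Stat5a overlaps that of Stat3 (chr11:100885098-100939540, minus strand) by 72 bases. Libraries keep strand by the protocol, but the strand setting of the counting is not given in the sources used here. Stat6 (chr10:127642986-127660957) and Stat2 (chr10:128270559-128292849) share a chromosome at a distance of 609601 bases.

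The genes whose log2 CPM followed that of Stat4 most closely over the 7 libraries, among 10417 genes with a mean of at least 1 FPKM in each group, were Trim7 (Pearson r 0.9998), Cbx7 (0.9996) and Tnip3 (0.9996). Their log2 fold changes of 2.25, 2.63 and 1.11 were all smaller than that of Stat4. For Stat5a they were Tmem127 (0.999), Lrrk1 (0.999) and Nfe2l1 (0.998). These values describe 2 groups of libraries that share depth and preparation, and with values in separate clusters nothing further is read from r. Among the members, Stat3 and Stat5a were the most alike (r 0.995), and the r of Stat6 with the others was -0.21 to 0.29.

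The kinases upstream of the STAT proteins moved in part. Of the 4 JAK genes, 2 rose and none fell, which is 50.0% past the criteria against 23.1% of all tested genes. Jak3, which pairs with receptors of the IL-2 family, rose from 40.2 to 130 CPM (log2 fold change 1.69, SE 0.075, edgeR adjusted p 6.6e-07). Jak2, used by GM-CSF, IL-12 and IL-23 receptors, rose from 552 to 1568 CPM (log2 fold change 1.51). Tyk2, used by IL-12 and interferon receptors, was at 180 and 305 CPM (0.76), under the criterion, and Jak1 at 257 and 226 CPM (-0.19, edgeR adjusted p 0.273).

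Of 27 receptor chains, 7 rose, 5 fell and 15 did not pass, which is 44.4% past the criteria against 23.1% of all tested genes. Without mature replicate 3, 3 fell. The list's median log2 fold change was 0.22, against 0.055 over all tested genes. Il12rb2, the chain of the IL-12 receptor that recruits STAT4, rose from 8.74 to 64.7 CPM (log2 fold change 2.89, SE 0.39). Its mature libraries were at 83.8, 73.4, 25.9 and 75.6 CPM, with mature replicate 3 well below the rest. Il12rb1, the other chain of that receptor, was named after its values were seen and stood at 5.73 and 3.88 CPM (-0.56).

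Further receptor chains that rose were Il23r (0.326 to 4.93 CPM, log2 fold change 3.90), Il2ra (6.44 to 81.4 CPM, 3.66), the chain that raises affinity for IL-2, and Il15ra (8.76 to 35.5 CPM, 2.02), which presents IL-15. Il6ra, the IL-6 binding chain upstream of STAT3, fell from 92.8 to 26.1 CPM (-1.83). Il6st, the other chain of the IL-6 receptor, was named after its values were seen. It went the other way, from 48.0 to 110 CPM (1.19, edgeR adjusted p 0.00116). Csf2ra, the ligand-binding chain for GM-CSF and also named after its values were seen, fell from 437 to 155 CPM (-1.50). Its partner chain Csf2rb, named in the same way, did not fall. Csf2rb stood at 1539 and 1904 CPM (0.31, edgeR adjusted p 0.0459), under the fold criterion, and its groups overlapped.

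Among the 16 genes of inhibitors and phosphatases, 2 rose and 1 fell, with a median of 0.020. At 18.8% past the criteria, the list lies below the 23.1% of all tested genes. By adjusted p alone, 4 further genes of the list were higher and 2 further genes lower. Of the 17461 tested genes, 8053 passed by adjusted p alone. Socs2, a feedback inhibitor of STAT5, rose from 141 to 396 CPM (1.49). Pias3, known as an inhibitor of STAT3, rose from 21.5 to 50.3 CPM (1.22). Socs6 fell from 205 to 54.0 CPM (-1.93). Of the 15 ligands, 14 matched the table and 10 were tested, of which 4 rose and none fell, or 40% against 23.1% of all tested genes. Without immature replicate 1 the count was 2, since Il12a and Il23a, at under 1 FPKM and named here after their values were seen, no longer passed. Il12b, the shared subunit of IL-12 and IL-23, rose from 2.89 to 21.2 CPM (2.87), and Il15 from 10.4 to 29.7 CPM (1.52). The 4 untested ligands had at most 21 counts in any library.

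**Figure D4:**
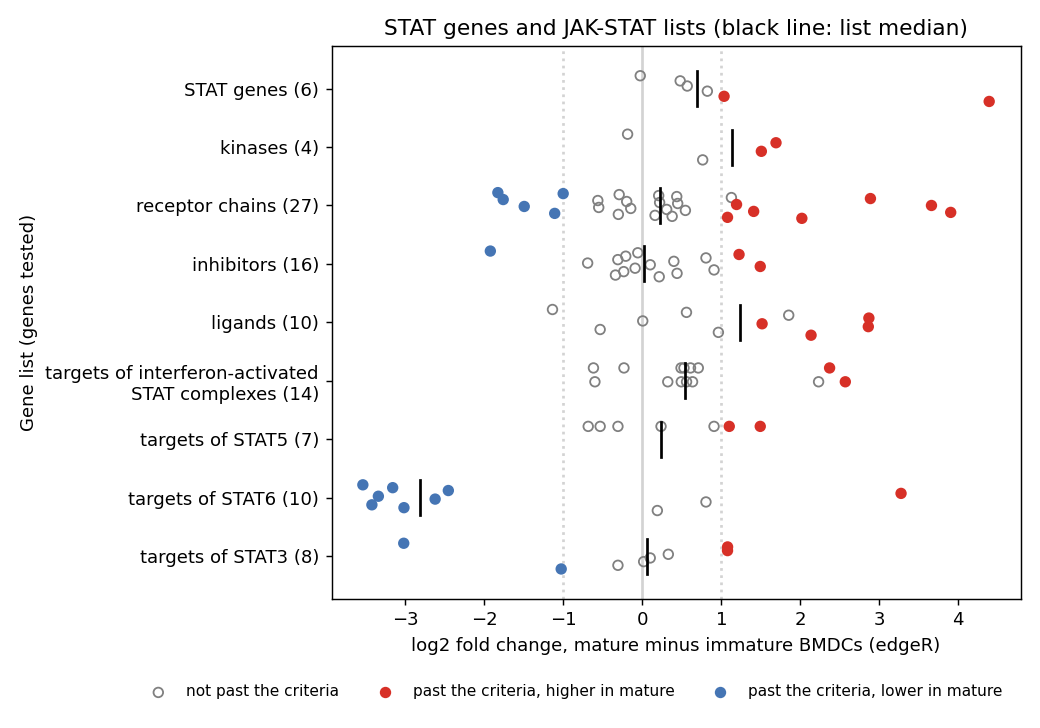
Log2 fold change (mature minus immature) of each tested gene of the JAK-STAT lists, by list, with genes past the criteria marked and lines at the fold criterion of 1. On the inhibitor list 13 of 16 genes lie short of the criteria, whereas 7 of the 10 STAT6 targets lie below -1 and Ccl22 lies above 3.

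No test compared the lists of STAT targets with each other. Of 10 genes known as targets of STAT6, 1 rose and 7 fell, or 80% against 23.1% of all tested genes. The median log2 fold change was -2.82, while the levels of Stat6 itself overlapped between the groups. Without immature replicate 1, or without immature replicate 3, 6 fell. In both cases Cd209a, at 0.716 CPM or less in every library and named here after its values were seen, no longer passed. By adjusted p alone, Socs1 was also higher (0.81, edgeR adjusted p 0.00975). Mrc1, which encodes the mannose receptor, fell from 158 to 14.7 CPM (-3.43), and Arg1, an arginine-degrading enzyme, fell from 2482 to 245 CPM (-3.34). Retnla fell from 353 to 39.5 CPM (-3.16) and Chil3 from 10244 to 1264 CPM (-3.02), both secreted products of IL-4-treated macrophages. Ccl22, a chemokine that is also on the list of mature dendritic cell markers, rose from 917 to 8879 CPM (3.28). Mrc1, Arg1, Retnla and Chil3 also mark macrophages, and all 8 macrophage markers fell, from sums of 2002 to 2064 CPM to 354 to 417 CPM. Their part in this list's values was not tested.

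Of 14 targets of interferon-activated STAT complexes, 2 rose and none fell, with a median of 0.54. The share past the criteria, 14.3%, lies near the 13.2% of all tested genes that were higher and below the 23.1% in either direction. Mx1, an antiviral GTPase, rose from 58.5 to 347 CPM (2.57) and Mx2 from 2.58 to 13.4 CPM (2.37). The 12 others did not pass both criteria. By adjusted p alone, 4 of them were higher, besides Mx1 and Mx2, and 1, Oasl2, was lower (-0.62, edgeR adjusted p 0.000276). Of all tested genes, 23.2% were higher by adjusted p alone, so on that looser criterion the list lies above the background. Of 7 targets of STAT5, 2 passed the criteria (28.6%), both higher: Socs2, described with the inhibitors, and Id2, a regulator of dendritic cell differentiation, which rose from 238 to 509 CPM (1.10). Without mature replicate 3, at 652 CPM, the value of Id2 was 0.98, under the criterion, which leaves 1. By adjusted p alone, Cish was also higher (0.91), and Bcl2l1 (-0.69), Osm (-0.53) and Pim1 (-0.31) were lower, none past the fold criterion. Of 8 targets of STAT3, 2 rose and 2 fell (50.0%). Bcl3 rose from 26.9 to 56.9 CPM (1.08) and Il4ra from 245 to 516 CPM (1.08), and Fos fell from 275 to 33.9 CPM (-3.02) and Hif1a from 395 to 194 CPM (-1.03). The value of Hif1a was -0.91 without mature replicate 3 and -0.996 (edgeR adjusted p 0.00110), just short of the criterion, without immature replicate 1, and in each case 1 fell.

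Counted once, 89 genes of these lists were tested, 20 rose and 15 fell, which is 39.3% past the criteria, against 23.1% of all tested genes. The figures for single lists rest on few genes. Chil3, and Clec10a with Mgl2, have near-identical relatives whose reads could be shared.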

How the data were processed

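The authors deposited, for each gene and library, whole-number counts of reads without normalization, and FPKM values, which scale fragments by gene length and library total. The submitters' processing notes name cutadapt 1.9, HISAT2 2.2.1, StringTie 2.1.6, DESeq2 and edgeR. They name build mm9, yet the table's coordinates equal GENCODE M21 on GRCm38 for 25805 of 28588 shared gene IDs (90.3%) and for all 6 STAT genes, so coordinates are given on GRCm38. Low counts pile up at multiples of 4 (the count 4 occurs 6956 times, 3 occurs 3473 times and 5 occurs 2146 times), and the cause was not tested. Total counts per library bear on counting error only.

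The test ran under R 4.3.3 with edgeR 4.0.16 (filterByExpr, TMM, glmQLFit and glmQLFTest) on 3 immature and 4 mature libraries, with group as the only term. Groups and replicate numbers came from the sample titles. Benjamini-Hochberg adjustment covered all 17461 genes tested, and the criteria, taken from the study's methods, were a difference of 1 or more on the log2 scale and an adjusted p below 0.05. Standard errors were derived from the log2 fold change and its F statistic (size over root F). CPM values use TMM library sizes, and levels of different genes are compared only in FPKM. The ratio of Stat5a to Stat5b was tested by an exact permutation test in Python 3.11.15 with scipy 1.17.1. Promoters came from RefSeq. Figures were drawn with matplotlib 3.10.9.

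The members, the gene lists and the marker lists were chosen with earlier results of these data known. Of each list, the genes past the criteria with a mean FPKM of at least 1 in a group are named, at most 5 per list by size of change, and every kinase; for each member past the criteria, the 3 genes most like it are named. Other genes named were chosen after their values were seen.

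Alternatives were DESeq2 1.42.0, RLE normalization, no filter, limma 3.58.1 on log2(FPKM + 1) and log2(FPKM + 0.1), a fit with the replicate number as a block, adjusted p alone, and leaving out each library. Counts divided by 4 and rounded, and mature replicate 1 alone, were added after seeing the data. Among libraries of a group, the median chi-square per gene was 3.83 or more, against 0.455 under sampling noise, so none was counted as a copy of another.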

Additional observations from a re-analysis of the deposited data

Results flagged for a closer look

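Over the 4 mature libraries, 40 values of the STAT genes and of the named genes of the pathway lists were examined for a library standing far from the others, by the gap to the nearest library as a share of the whole range. Chance gives about 2 such values, and 10 were found, all with mature replicate 3 apart. The values of one library are not independent of each other.

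Among the STAT genes, Stat3 was at 283 CPM in mature replicate 3 and at 338 to 345 CPM in the others (gap 0.885 of the range). Stat2 was at 17.1 FPKM there and at 26.8 to 28.6 FPKM in the others (0.837). Stat5a was at 22.2 against 30.9 to 32.3 FPKM (0.863), and Stat5b at 17.8 against 23.7 to 24.4 FPKM (0.891). Each of these STAT genes was flagged in the unit given here and not in the other, so the flags depend on the unit.

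Of the pathway genes, Jak1 was at 173 CPM in that library and at 239 to 249 CPM in the others (0.869), Jak2 at 1233 against 1648 to 1708 CPM (0.873) and Il6ra at 17.6 against 28.5 to 29.2 CPM (0.938). Il15 was higher there, at 34.7 against 27.6 to 28.5 CPM (0.878), as were Id2, at 652 against 459 to 468 CPM (0.955), and Fos, at 55.8 against 25.2 to 28.6 CPM (0.889). The part of transcript length in these values was not tested for each gene.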

How the results depend on the processing

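Stat2, Stat3, Stat4 and Stat5b kept their direction and their side of the criteria in all 15 alternatives run on each, with log2 fold changes of 0.51 to 0.77, 0.80 to 0.92, 4.07 to 4.55 and 0.44 to 0.58. Stat5a ranged from 0.97 to 1.14 and fell under the fold criterion with the replicate block (0.97, edgeR adjusted p 0.00168) and without mature replicate 4 (0.99). Stat6 changed sign, without passing any test, with limma on log2(FPKM + 1) (0.076) and log2(FPKM + 0.1) (0.078), with counts divided by 4 (0.0091) and without mature replicate 3 (0.040), and ranged from -0.061 to 0.040 when a library was left out.

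Members past the criteria numbered 2, but 1 with the replicate block, 5 by adjusted p alone, and 1 to 2 when a library was left out. Tested genes past the criteria numbered 4037 in the fit used, 1768 and 2561 with limma at pseudocounts of 1 and 0.1, 8053 by adjusted p alone, and 3646 to 4052 when a library was left out. Of the listed genes 35 passed, against 28 and 30 with limma at pseudocounts of 1 and 0.1. The number was 59 by adjusted p alone and 31 to 37 when a library was left out. The log2 ratio of Stat5a to Stat5b stayed at 0.50 to 0.58, where leaving a library out gives fewer labelings. The limma fits covered only genes with at least 1 FPKM in at least 3 libraries. Their counts are therefore over a different set of genes. The cause of these shifts was not tested, apart from the looser criterion.

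Replicate numbers did not pair the libraries: same-numbered samples deviated together with r of 0.029, -0.0011 and 0.014. The block fit, which has no partner for mature replicate 4, gave 3616 genes past the criteria.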

Other observations

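A wider list, the 139 genes that the deposited table annotates to the Jak-STAT signaling pathway, was chosen after the data were seen. Of its 115 tested genes, 28 were higher and 10 lower in mature BMDCs, which is 33.0% past the criteria against 23.1% of all tested genes, with a median log2 fold change of 0.30.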
